A study of Homo sapiens with 29 samples.

Results

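The axon guidance ligands and receptors were taken from the expression table by gene symbol: semaphorins, plexins, neuropilins, Slits, Robos, srGAP adaptors, netrins with their UNC5, DCC and RGMA partners, CRMP proteins, ephrin-A ligands and EphA receptors. The pattern found 55 of the 13492 genes in the table, and another 15 annotated genes with such symbols, NRP1, NTN1, SLIT3 and EPHA7 among them, were not analysed here. The rule named SEMA5B as falling at 100 mpk, so the fall of SEMA5B in that comparison was known in advance.

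The 29 libraries, labelled 48 h, hold polyA RNA of tumours that the human colorectal adenocarcinoma line COLO320DM formed in mice. The groups were Helicon4_100mpk (n = 5), Helicon4_30mpk (n = 6), Helicon4neg_30mpk (n = 8) and vehicle (n = 10). The unit mpk is not spelled out in the labels. The series title describes a helicon peptide aimed at β-catenin and TCF, and the labels give no structure for Helicon4 or Helicon4neg. All groups share 1 tumour line, no host strain or age is given, and nothing but a replicate number says that libraries came from separate animals, so the spread between libraries may be partly technical.

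Axon guidance molecules steer growing axons by attraction and repulsion. Semaphorins signal mainly through plexins, with neuropilins as co-receptors for the secreted class 3 members; Slits act on Robo receptors, which recruit srGAP proteins; netrins act on DCC and UNC5 receptors; and ephrin-A ligands, tethered to the membrane by a lipid anchor, bind EphA receptors on neighbouring cells. In epithelia and tumours the same molecules act in cell adhesion, migration and vessel growth. TCF factors are the DNA-binding partners of β-catenin in Wnt signalling.

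The libraries held 26.8 to 61.6 M recovered reads, and the values are CPM on the authors' scaling. A fold change is a difference of mean log2(CPM + 1), which understates changes of genes near or below 1 CPM. Sample titles carry codes whose meaning is not given in the sources used here. No code holds both a Helicon4 and a vehicle library, so code and group cannot be told apart within a code for those comparisons. A fit blocked on the code reaches vehicle only through Helicon4neg. It rests on the 2 vehicle libraries of SH7080 and on the 1 Helicon4_30mpk library of SH7081. At 100 mpk it also rests on the 1 Helicon4_30mpk library of SH7083. Helicon4neg replicate 2 and vehicle replicate 6 had the lowest slopes of log2 values on gene length in their groups, -0.321 and -0.186. The next Helicon4neg library had -0.0452, whereas vehicle replicates 4 and 8 came close to replicate 6 at -0.135 and -0.132. Without Helicon4neg replicate 2 and vehicle replicate 6, 35 of the 55 genes and 39.5% of all genes were called at 100 mpk against vehicle. At 30 mpk the calls against vehicle were 26 of the 55 and 16.4% of all genes. In bulk tumours, fewer cells of a type and less RNA per cell cannot be told apart. Of 12 colorectal markers 7 were rows of the table; CDX2 and KRT18 averaged 2087 and 102 CPM at 100 mpk, against 3135 and 111 CPM with vehicle. GPA33, EPCAM, KRT8, CDH17 and KRT19 averaged 43.7, 32.7, 187, 13.8 and 0.958 CPM at 100 mpk, against 14.6, 27.9, 175, 11.5 and 0.690 CPM with vehicle. The summed log2 level of the list was 1.58 higher at 100 mpk (adjusted p = 0.0343, exact permutation test). GPA33 had by far the largest rise on that scale. The summed CPM of the list went the other way, with medians of 2388 at 100 mpk and 3500.5 with vehicle. CDH1, VIL1, CDX1, LGALS4 and MUC2 were not analysed here.

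More of these genes rose than fell with Helicon4. At 100 mpk 20 of 55 rose and 11 fell against vehicle, beside 14.3% of all 13373 tested genes that rose and 15.9% that fell, 30.2% in all (limma, adjusted p under 0.05). At 30 mpk 20 rose and 3 fell against vehicle, beside 5.86% and 5.22% of all genes, 11.1% in all. The median fold change of the 55 genes on the log2 scale was 0.19 at 100 mpk and 0.21 at 30 mpk, against 0.01 and -0.00 over all genes. Falls at 100 mpk made up 20% of the 55 genes, a share near that of all genes, whereas the shares that rose at 100 mpk and at 30 mpk were 36.4% each. Both doses were set against the same vehicle libraries. Blocking on the title code, which raised the median standard error 3.26 times at 100 mpk, left 1 gene (SEMA5B) called at 100 mpk and 0 at 30 mpk, beside 1.05% and 0.553% of all genes, while 28 of 31 and 22 of 23 kept their sign.

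**Figure D1:**
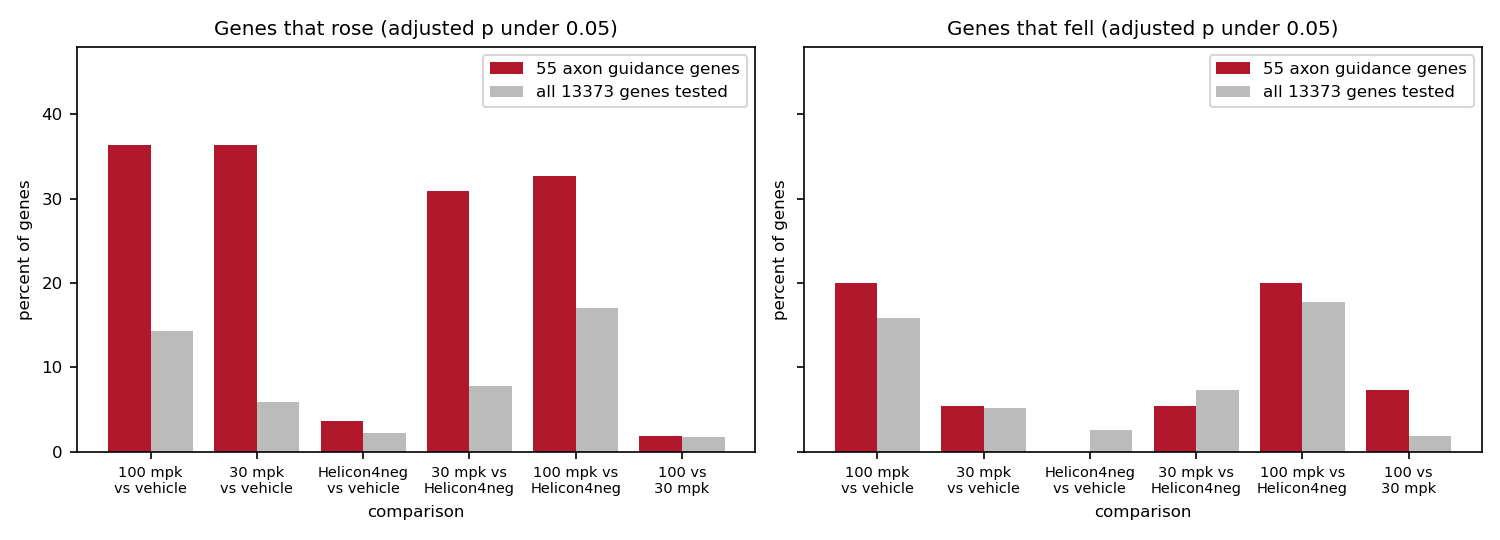
Share of the 55 axon guidance genes (red) and of all 13373 tested genes (grey) with adjusted p under 0.05 in each of 6 comparisons, in percent, split into genes that rose (left) and fell (right). The axon guidance genes that rose against vehicle made up 36.4% at both doses, beside 14.3% and 5.86% of all genes.

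By family, all 3 measured netrins as well as the netrin receptor UNC5B and the repulsive ligand RGMA rose at 100 mpk against vehicle. The netrin receptor DCC was not called in that comparison. The rises at 100 mpk also took in 6 of 18 semaphorins, 2 of 3 srGAP adaptors, 1 of 2 Slits, 2 of 10 plexins and neuropilins, 2 of 4 ephrin-A ligands and 2 of 6 EphA receptors. None of 3 Robo receptors passed the test at either dose. The falls at 100 mpk were 4 semaphorins, 2 plexins, 2 CRMP proteins, 2 EphA receptors and 1 ephrin-A ligand. Against vehicle, 17 genes rose at both doses and 3 (SEMA5B, PLXNA2 and EPHA2) fell at both. Another 8 genes passed the test for a fall at 100 mpk alone, of which SEMA4D and DPYSL3 also differed between the doses. These patterns over both doses were not counted for all genes. Whether they are particular to the axon guidance genes was therefore not tested.

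**Figure D2:**
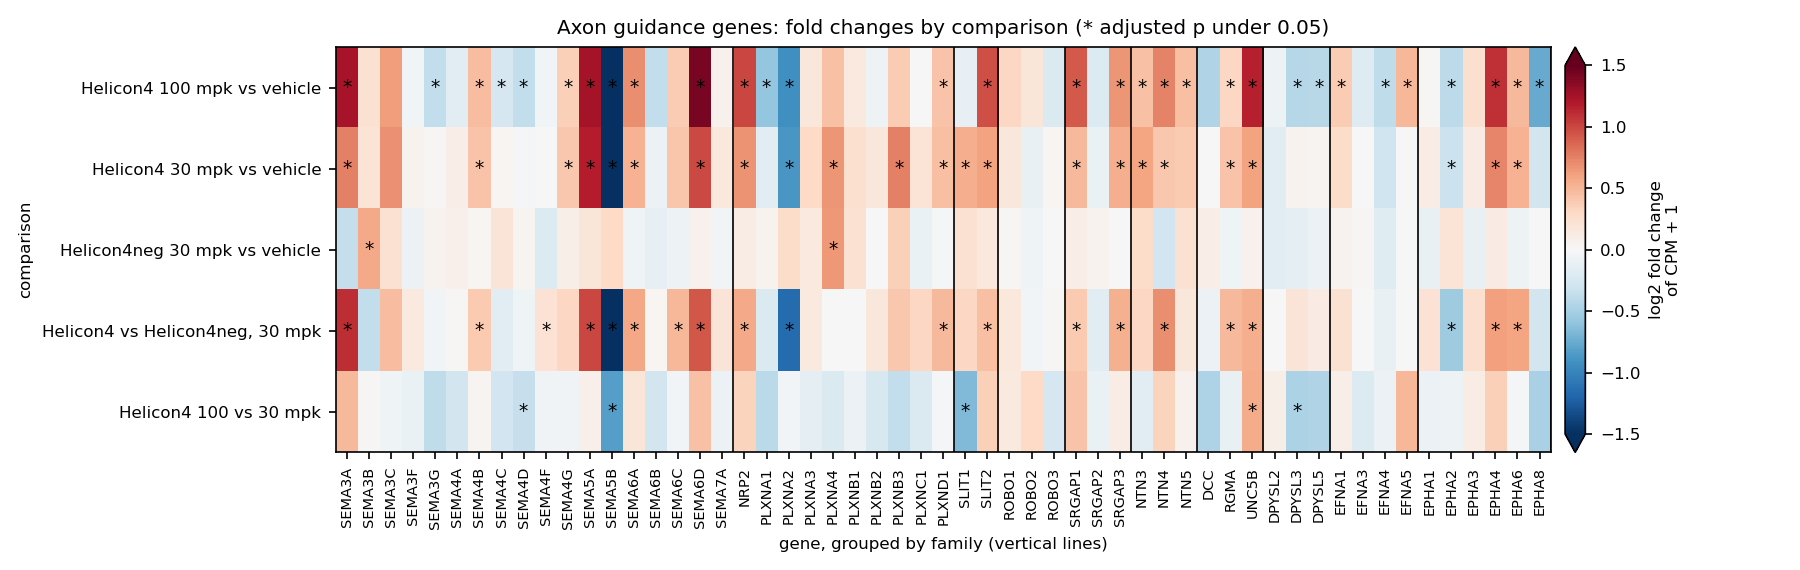
Log2 fold changes of CPM + 1 for the 55 genes (columns, grouped by family) in 5 comparisons (rows), with red for higher and blue for lower in the first-named group; stars mark adjusted p under 0.05 and colours saturate at 1.5 on the log2 scale. SEMA5B is blue and SEMA5A red in all 3 comparisons of Helicon4 with vehicle or with Helicon4neg at 30 mpk.

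SEMA5B and SEMA5A are the paired class 5 semaphorins, transmembrane ligands with thrombospondin repeats that can repel or attract axons. Windows of 300 bases, 250 before the start site and 50 after it, are shown for both genes and for PLXNA2, a receptor that fell at both doses, because the series title names TCF. Sequences are from RefSeq, GRCh38.p14, on the gene's strand; capitals mark a TCF/LEF-type word, CTTTGAA or the same with AT, TA or TT as its last letters, searched on both strands. The SEMA5B window lies at chr3:123027714-123028013 (minus strand), the SEMA5A window at chr5:9546026-9546325 (minus strand) and the PLXNA2 window at chr1:208244335-208244634 (minus strand).
SEMA5B: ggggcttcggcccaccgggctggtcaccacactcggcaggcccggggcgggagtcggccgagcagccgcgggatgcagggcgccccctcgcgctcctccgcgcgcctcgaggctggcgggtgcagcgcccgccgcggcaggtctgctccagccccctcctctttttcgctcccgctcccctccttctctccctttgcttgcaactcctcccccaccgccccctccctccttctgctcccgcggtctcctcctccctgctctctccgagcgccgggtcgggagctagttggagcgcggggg
SEMA5A: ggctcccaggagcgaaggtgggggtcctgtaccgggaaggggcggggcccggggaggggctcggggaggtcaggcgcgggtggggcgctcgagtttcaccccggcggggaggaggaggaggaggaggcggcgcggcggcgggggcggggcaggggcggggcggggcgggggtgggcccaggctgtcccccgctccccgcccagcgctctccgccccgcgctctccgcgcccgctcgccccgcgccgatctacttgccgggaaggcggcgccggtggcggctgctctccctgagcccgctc
PLXNA2: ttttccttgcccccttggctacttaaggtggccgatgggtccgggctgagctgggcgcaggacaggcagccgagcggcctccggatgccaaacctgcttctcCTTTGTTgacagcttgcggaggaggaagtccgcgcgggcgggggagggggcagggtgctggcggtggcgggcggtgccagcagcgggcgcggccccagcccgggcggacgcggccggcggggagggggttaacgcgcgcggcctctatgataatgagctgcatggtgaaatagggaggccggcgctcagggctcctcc
PLXNA2 has CTTTGTT at position -148 from its start site, and neither this SEMA5B window nor the other 2 RefSeq windows of that gene nor the SEMA5A window holds any of the 4 words. The windows of 48 of the 55 genes were found, 77 in all, and 9 of them (11.7%) held a word, against 13.8% of all 35116 windows in the table and 9.59% of windows of genes tested here. A word was present for 3 of 11 genes that fell at 100 mpk (PLXNA1, PLXNA2 and EFNA4), 2 of 16 that rose (SEMA4G and SEMA6D) and 4 of 21 that were not called. Matching letters are a description and do not show binding.

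SEMA5B had the lowest fold change of the 55 genes on the log2(CPM + 1) scale at both doses; by edgeR on recovered reads its log2 change against vehicle at 30 mpk was -2.58 and that of PLXNA2 -3.42. Its values were 0.182, 0.284, 0.187, 0.337 and 0.852 CPM at 100 mpk, and at 30 mpk the lowest, median and highest were 1.05, 1.13 and 2.703 CPM. Helicon4neg libraries ran from 5.61 through a median of 11.1 to 17.5 CPM, and vehicle libraries from 4.53 through 9.17 to 12.7 CPM. Every Helicon4 library lay below every Helicon4neg and vehicle library, and the 2 doses did not overlap either. In recovered reads SEMA5B had 97 at 100 mpk and 3708 with vehicle, a rate 21.1 times lower (95% counting interval 17.3 to 26.1). At 30 mpk it had 411 reads, 5.87 times below vehicle (5.30 to 6.51) and 7.74 times below Helicon4neg (6.99 to 8.58); these intervals cover counting error only. On the log2(CPM + 1) scale the changes were -2.79 ± 0.20 at 100 mpk and -1.97 ± 0.19 at 30 mpk against vehicle (SE; limma, adjusted p = 4.02e-12 and 4.80e-09). The Helicon4neg libraries differed from vehicle by 0.30 (95% limits -0.05 to 0.66, adjusted p = 0.343, limma).

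Between doses SEMA5B fell by 0.83 on the log2 scale at 100 mpk against 30 mpk (adjusted p = 0.0317, limma). The value was -1.80 with a pseudocount of 0.1 (limma, adjusted p = 0.000706), and -1.90 by edgeR and -1.93 by DESeq2 on recovered reads (adjusted p = 0.00282 and 5.06e-06). The limma call was lost without any 1 of Helicon4_100mpk replicates 1, 2, 3 and 4 or Helicon4_30mpk replicates 1 and 4 (adjusted p 0.0518 to 0.101, limma). Blocking on the title code, the falls against vehicle were -2.73 at 100 mpk (adjusted p = 0.0376, limma) and -1.97 at 30 mpk (adjusted p = 0.111), and the fall against Helicon4neg at 30 mpk was -2.12 (adjusted p = 0.00499). Within code SH7081, which holds both compounds, the 1 Helicon4_30mpk library had 1.62 CPM of SEMA5B and the 3 Helicon4neg libraries averaged 10.4 CPM. Within code SH7083 the 4 libraries at 100 mpk averaged 0.247 CPM and the 1 library at 30 mpk had 1.10 CPM. Within code SH7080 the 5 Helicon4neg libraries averaged 11.25 CPM and the 2 vehicle libraries 9.48 CPM. The blocked falls against vehicle and against Helicon4neg rest on these gaps within codes, and so on single Helicon4_30mpk libraries.

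SEMA5A changed the other way. It had 58.5, 85.3, 86.9, 95.9 and 88.3 CPM at 100 mpk and a lowest, median and highest of 63.1, 78.3 and 94.0 CPM at 30 mpk. Helicon4neg gave 25.3, 40.6 and 48.8 CPM and vehicle 25.8, 34.2 and 45.5 CPM in the same order. No Helicon4 library overlapped a Helicon4neg or vehicle library. SEMA5A rose by 1.25 ± 0.13 at 100 mpk and 1.18 ± 0.13 at 30 mpk against vehicle (log2, SE; limma, adjusted p = 1.70e-08 and 4.17e-08). The doses differed by 0.07 (95% limits -0.23 to 0.37), and Helicon4neg exceeded vehicle by 0.18 (-0.06 to 0.41), neither past the threshold. SEMA5A shares exon bases with an antisense transcript in GENCODE 29, and whether strand was used in counting is not stated.

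**Figure D3:**
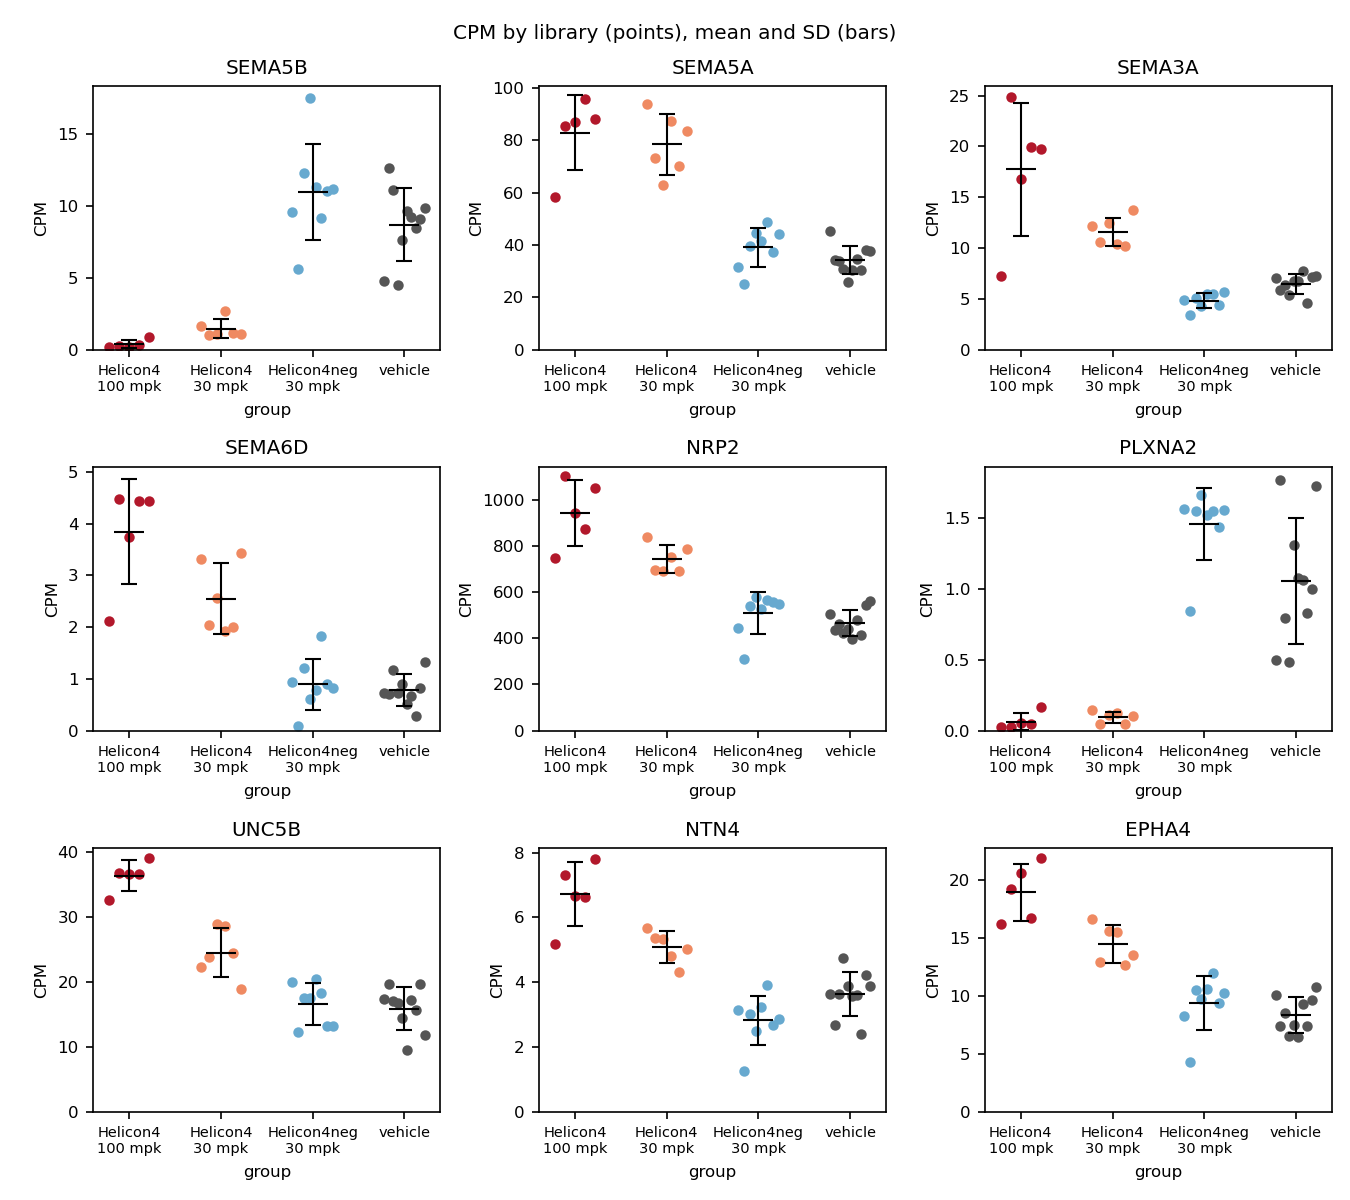
CPM of 9 genes in each library (points) with the mean and SD (bars) for Helicon4 at 100 and 30 mpk, Helicon4neg at 30 mpk and vehicle; each panel has its own linear axis from 0. SEMA5B and PLXNA2 sit near 0 in all 11 Helicon4 libraries, while the other 7 genes average higher at both doses than in both control sets; SEMA3A at 100 mpk and NTN4 and UNC5B at 30 mpk overlap vehicle.

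The class 3 semaphorin SEMA3A, a secreted repellent that acts through neuropilin and plexin complexes, rose as well. At 100 mpk its values were 7.29, 24.9, 16.8, 19.98 and 19.8 CPM, and at 30 mpk it ran from 10.2 through 11.4 to 13.8 CPM. The Helicon4neg libraries spanned 3.37 to 5.66 CPM with a median of 5.01, and the vehicle libraries 4.59 to 7.73 CPM with a median of 6.76. All libraries at 30 mpk lay above both sets, whereas replicate 1 at 100 mpk fell inside the vehicle range. SEMA3A rose by 1.24 ± 0.16 at 100 mpk and 0.75 ± 0.15 at 30 mpk against vehicle, and by 1.11 ± 0.16 at 30 mpk against Helicon4neg (log2, SE; limma, adjusted p = 7.25e-07, 0.000887 and 6.94e-06).

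SEMA6D, a transmembrane class 6 semaphorin, was scarce in controls. It had 2.12, 4.48, 3.74, 4.45 and 4.44 CPM at 100 mpk and 1.93, 2.31 and 3.43 CPM (lowest, median, highest) at 30 mpk. Helicon4neg gave 0.0935, 0.864 and 1.83 CPM and vehicle 0.276, 0.729 and 1.33 CPM. The Helicon4 libraries did not overlap either control set. Reads of SEMA6D numbered 934 at 100 mpk and 342 with vehicle, a rate 4.94 times higher (95% counting interval 4.36 to 5.61), against a 2.69-fold change on the CPM + 1 scale (log2 1.43 ± 0.16, adjusted p = 6.85e-08, limma). Its relative SEMA6A rose to 9.48 ± 1.35 CPM at 100 mpk and 8.21 ± 1.07 CPM at 30 mpk, against 5.17 ± 0.66 CPM with Helicon4neg and 5.44 ± 0.71 CPM with vehicle (SD).

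Among class 4 semaphorins, which are membrane-bound and signal mostly through B-type plexins, members moved in both directions. SEMA4B rose by 0.46 at 100 mpk and 0.42 at 30 mpk, and SEMA4G by 0.35 and 0.40 (log2, against vehicle). SEMA4D, the ligand of PLXNB1, fell to 31.5 ± 2.0 CPM at 100 mpk, against 41.2 ± 4.7 CPM with vehicle, and had 40.4 ± 3.0 CPM at 30 mpk. SEMA4C fell by 0.25 and the secreted SEMA3G by 0.37 on the log2 scale at 100 mpk; blocked on the title code, SEMA4C had 0.06. The SEMA3G call was lost without Helicon4_100mpk replicate 2 (adjusted p = 0.0524, limma), and the SEMA4G call without replicate 1 or 4 of that group (0.0713 and 0.0580). The SEMA4C call was lost without any 1 of Helicon4_100mpk replicates 2 to 5 or vehicle replicates 3 and 4 (0.0543 to 0.108). SEMA3C, the most abundant semaphorin that passed the test in no comparison, had 23.3 ± 5.1 CPM at 100 mpk and 15.2 ± 5.0 CPM with vehicle, and its libraries overlapped.

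NRP2, a co-receptor for class 3 semaphorins and for vascular endothelial growth factors, had the highest level per kilobase of the 55 genes in vehicle, at 33.6 CPM per kilobase, above DPYSL3 at 25.3 and EFNA4 at 20.3. At 100 mpk it had 746, 1102, 943, 872 and 1051 CPM, and at 30 mpk it ran from 692 through 723 to 838 CPM. Helicon4neg libraries held 311 to 578 CPM with a median of 545, and vehicle libraries 397 to 560 CPM with a median of 452. Each Helicon4 library exceeded each library of both control sets. NRP2 rose by 1.01 ± 0.12 at 100 mpk and 0.67 ± 0.11 at 30 mpk against vehicle, and by 0.56 ± 0.11 against Helicon4neg at 30 mpk (log2, SE; limma, adjusted p = 6.85e-08, 5.02e-05 and 0.000762). The 2 doses overlapped, with a difference of 0.34 (95% limits 0.07 to 0.60) that missed the adjusted threshold.

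**Figure D4:**
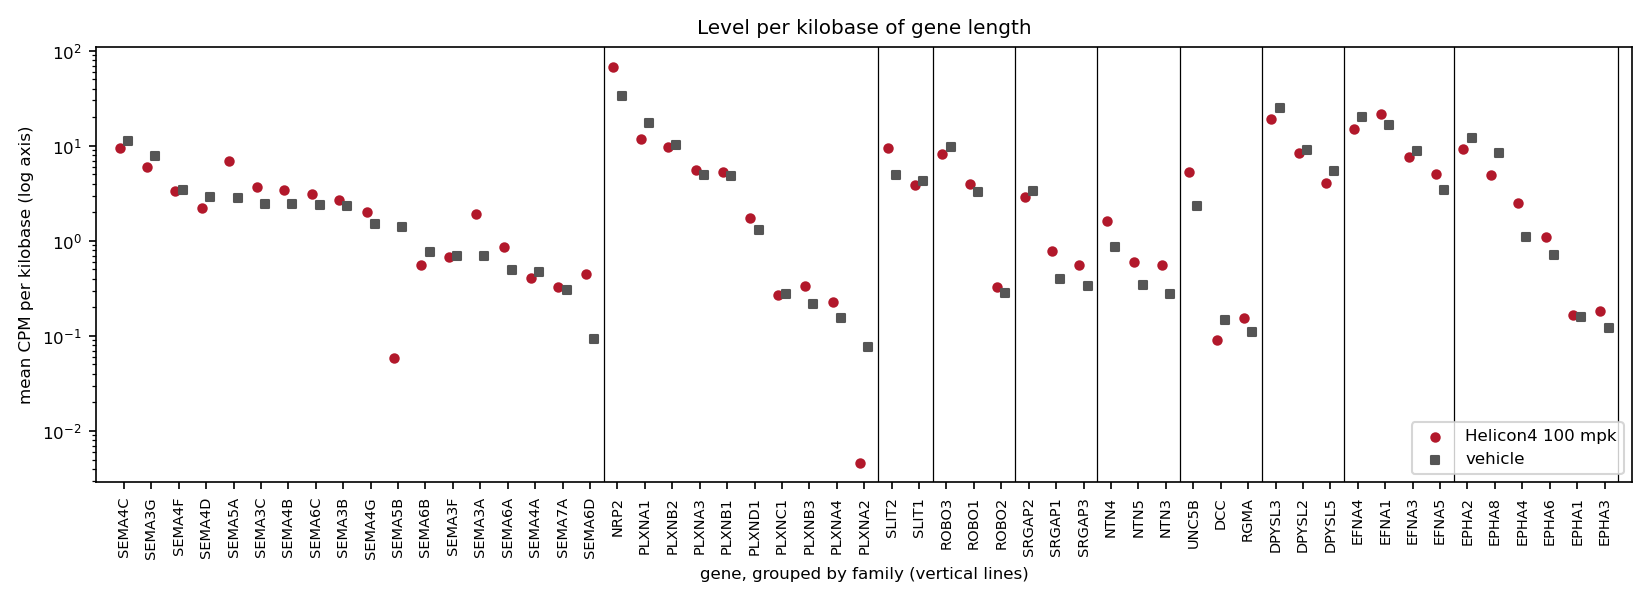
Mean CPM per kilobase of gene length (log axis) of the 55 genes at 100 mpk (red circles) and with vehicle (grey squares), grouped by family and ordered by the vehicle level. NRP2 is highest at 33.6 CPM per kilobase with vehicle, and SEMA5B and PLXNA2 show the widest gaps between the groups.

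PLXNA2, a plexin that transduces class 3 and class 6 semaphorin signals, is named after its values were seen, since its mean lay below 1 CPM. It had 0.0228, 0.0284, 0.0534, 0.0481 and 0.167 CPM at 100 mpk and ran from 0.0445 through 0.104 to 0.142 CPM at 30 mpk. Helicon4neg libraries spanned 0.842 to 1.66 CPM with a median of 1.54, and vehicle libraries 0.486 to 1.77 CPM with a median of 1.03. The Helicon4 libraries lay below all others and the doses overlapped. PLXNA2 had 17 reads at 100 mpk and 27 at 30 mpk, against 565 with Helicon4neg and 451 with vehicle. Its rate was 14.7 times below vehicle at 100 mpk (95% counting interval 9.05 to 25.4), 10.9 times at 30 mpk (7.36 to 16.7), and 15.7 times below Helicon4neg at 30 mpk (10.7 to 23.98). On the log2(CPM + 1) scale the falls were -0.92 at 100 mpk and -0.88 at 30 mpk against vehicle (limma, adjusted p = 2.95e-07 and 5.23e-07), while edgeR's quasi-likelihood test on recovered reads gave -3.86 and -3.42 (adjusted p = 5.19e-09 and 1.03e-08).

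The other plexins changed less. PLXNA1 fell to 130.0 ± 26.1 CPM at 100 mpk, against 192.5 ± 25.8 CPM with vehicle (log2 -0.58 ± 0.12, adjusted p = 0.000358, limma), and had 170.2 ± 14.7 CPM at 30 mpk. PLXND1, the receptor of SEMA3E and central to vessel patterning, rose to 17.1 ± 1.6 CPM at 100 mpk and 17.5 ± 1.3 CPM at 30 mpk, against 12.2 ± 1.4 CPM with Helicon4neg and 12.6 ± 1.8 CPM with vehicle, with no overlap between Helicon4 libraries and either set. PLXNB3 rose by 0.76 and PLXNA4 by 0.66 on the log2 scale at 30 mpk against vehicle. PLXNA4 also rose by 0.65 with Helicon4neg against vehicle (adjusted p = 0.0119, limma), a call lost when blocked on the title code. Within code SH7080 the 5 Helicon4neg libraries averaged 4.045 CPM of PLXNA4. The 2 vehicle libraries there had 2.06 and 5.19 CPM, and the log2 difference was 0.19. PLXNB2 and PLXNA3, the most abundant plexins called in no comparison, had 71.0 ± 16.2 and 64.4 ± 14.1 CPM at 100 mpk, against 73.7 ± 10.5 and 57.8 ± 13.8 CPM with vehicle. PLXNB3 shares exon bases with SRPK3 on the same strand.

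SLIT2, a secreted repellent read by Robo receptors, rose to 92.5 ± 12.4 CPM at 100 mpk and 71.9 ± 9.1 CPM at 30 mpk, against 52.9 ± 9.3 CPM with Helicon4neg and 47.3 ± 9.0 CPM with vehicle. The changes against vehicle were 0.97 ± 0.14 and 0.61 ± 0.13 (log2, SE; limma, adjusted p = 2.28e-06 and 0.00135). SLIT1 rose by 0.54 at 30 mpk and had a fold change of -0.12 at 100 mpk, both against vehicle; the call at 30 mpk was lost without Helicon4_30mpk replicate 1 (adjusted p = 0.0519, limma). SLIT1 shares exon bases with the readthrough gene ARHGAP19-SLIT1. ROBO3 had 58.3 ± 15.1 CPM at 100 mpk and 68.6 ± 17.9 CPM with vehicle, and ROBO1 43.5 ± 8.3 and 35.1 ± 8.8 CPM in those groups. Their libraries overlapped.

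Of the srGAP adaptors, which bind Robo receptors and shape membranes, SRGAP1 rose to 20.6 ± 2.1 CPM at 100 mpk and 15.03 ± 1.76 CPM at 30 mpk, against 10.5 ± 1.9 CPM with vehicle. SRGAP3 rose to 10.4 ± 1.3 CPM at 100 mpk and 9.67 ± 1.48 CPM at 30 mpk, against 6.27 ± 0.86 CPM with vehicle. At 100 mpk against Helicon4neg, SRGAP3 rose by 0.65 unblocked and by 1.27 when blocked on the title code (log2, limma, adjusted p = 1.54e-05 and 0.0203). The blocked value against vehicle was 1.28 and missed the threshold (adjusted p = 0.0537, limma). No code holds both a 100 mpk and a Helicon4neg library. Both blocked values rest on 1 Helicon4_30mpk library of SH7081 (10.8 CPM) and 1 of SH7083 (6.99 CPM). SRGAP2 had 45.6 ± 2.7 CPM at 100 mpk and 52.98 ± 6.34 CPM with vehicle and was not called. SRGAP2 has near-identical gene copies that could take or give reads. Both SRGAP1 and SRGAP3 overlap antisense transcripts. SRGAP3 also shares exon bases with the protein-coding gene THUMPD3 on the opposite strand and with another annotated gene on the same strand.

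UNC5B, a netrin receptor that mediates repulsion and acts in vessels, gave 32.6, 36.7, 36.6, 36.6 and 39.1 CPM at 100 mpk and 18.9, 24.1 and 28.9 CPM (lowest, median, highest) at 30 mpk. Helicon4neg libraries ran from 12.3 through 17.5 to 20.4 CPM, and vehicle libraries from 9.43 through 16.9 to 19.7 CPM. All libraries at 100 mpk exceeded all others, and those at 30 mpk overlapped both control sets. UNC5B rose by 1.17 ± 0.14 at 100 mpk and 0.61 ± 0.13 at 30 mpk against vehicle (log2, SE; limma, adjusted p = 1.03e-07 and 0.00153). RGMA, a repulsive ligand of neogenin, rose by 0.31 at 100 mpk and 0.42 at 30 mpk against vehicle. Its call at 100 mpk was lost without any 1 of Helicon4_100mpk replicates 1, 2, 3 and 5 or vehicle replicates 4, 7 and 9 (adjusted p 0.0526 to 0.0953, limma). RGMA shares exon bases with a processed pseudogene on the same strand. DCC, the attractive netrin receptor, averaged 1.18 ± 0.66 CPM at 100 mpk and 1.93 ± 0.65 CPM with vehicle and missed the threshold in that comparison. It was called lower at 100 mpk than with Helicon4neg, which averaged 2.16 ± 0.72 CPM. That call was lost without any 1 of Helicon4_100mpk replicates 1, 2 and 4 or Helicon4neg replicates 4, 5 and 6 (adjusted p 0.0537 to 0.119, limma).

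NTN4, a netrin found in basement membranes, had 5.19, 7.32, 6.65, 6.63 and 7.82 CPM at 100 mpk and ran from 4.30 through 5.17 to 5.68 CPM at 30 mpk. Helicon4neg libraries spanned 1.262 to 3.90 CPM with a median of 2.95, and vehicle libraries 2.39 to 4.75 CPM with a median of 3.63. Libraries at 100 mpk lay above all control libraries, and those at 30 mpk lay above Helicon4neg but overlapped vehicle. NTN4 rose by 0.74 ± 0.13 at 100 mpk and 0.41 ± 0.12 at 30 mpk against vehicle (log2, SE; limma, adjusted p = 5.73e-05 and 0.0276). The call at 30 mpk was lost without any 1 of Helicon4_30mpk replicates 1, 2 and 3 or vehicle replicates 2 and 8 (adjusted p 0.0501 to 0.0814, limma). The other two netrins, named after their values were seen, were NTN3 at 1.11 CPM and NTN5 at 1.89 CPM at 100 mpk, against 0.547 and 1.06 CPM with vehicle. The NTN5 call was lost without any 1 of Helicon4_100mpk replicates 1, 2 and 3 or vehicle replicates 5, 7 and 10 (0.0517 to 0.138).

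EPHA4, an ephrin receptor that binds both A and B ephrins, had 16.2, 19.2, 20.6, 16.7 and 21.9 CPM at 100 mpk and 12.7, 14.5 and 16.6 CPM (lowest, median, highest) at 30 mpk. Helicon4neg libraries ran from 4.30 through 9.97 to 11.9 CPM, and vehicle libraries from 6.44 through 8.01 to 10.8 CPM. No Helicon4 library overlapped either set. EPHA4 rose by 1.10 ± 0.15 at 100 mpk and 0.74 ± 0.14 at 30 mpk against vehicle (log2, SE; limma, adjusted p = 8.77e-07 and 0.000306). EPHA6 rose by 0.49 and 0.52 at the same doses, but had -0.38 and -0.05 when blocked on the title code. EPHA2, an EphA receptor common in epithelia, went the other way, with 38.6 ± 7.3 CPM at 100 mpk and 40.1 ± 3.0 CPM at 30 mpk, against 58.4 ± 5.2 CPM with Helicon4neg and 50.5 ± 5.3 CPM with vehicle. Its call at 30 mpk against vehicle was lost without Helicon4_30mpk replicate 1 or 6 (adjusted p = 0.0504 and 0.0539, limma). EPHA8 fell by 0.76 ± 0.13 at 100 mpk (adjusted p = 4.78e-05, limma) and had -0.27 at 30 mpk, which missed the threshold.

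The ephrin-A ligand EFNA1 rose to 54.3 ± 3.9 CPM at 100 mpk, against 42.1 ± 7.8 CPM with vehicle. EFNA5 rose to 28.7 ± 9.4 CPM, against 19.5 ± 2.8 CPM with vehicle, but not without Helicon4_100mpk replicate 2 (log2 0.33, adjusted p = 0.121, limma). EFNA4, named after its values were seen, fell by 0.38 on the log2 scale at 100 mpk and had 0.12 when blocked on the title code. The call was lost without any 1 of Helicon4_100mpk replicates 2, 3 and 5 or vehicle replicates 2, 3, 4, 6 and 8 (adjusted p 0.0521 to 0.112, limma). EFNA3 had 14.4 ± 2.8 CPM at 100 mpk and 16.8 ± 4.1 CPM with vehicle and was called in no comparison. DPYSL3 and DPYSL5, CRMP proteins that bind tubulin and carry semaphorin signals to the cytoskeleton, fell by 0.43 and 0.41 at 100 mpk (limma, adjusted p = 0.00154 and 0.00947). DPYSL2, the founding CRMP, had 59.7 ± 13.6 CPM at 100 mpk and 63.5 ± 15.4 CPM with vehicle.

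Helicon4 and Helicon4neg were compared at the matched dose of 30 mpk, 1 pair of compounds with p-values adjusted over all 13373 genes. Of the 55 genes 17 rose and 3 fell with Helicon4, beside 7.78% and 7.31% of all genes, 15.1% in all. SEMA5B fell by 2.27 ± 0.20, PLXNA2 by 1.16 ± 0.11 and EPHA2 by 0.53 ± 0.10 on the log2 scale (limma, adjusted p = 5.56e-10, 6.39e-09 and 0.000168). SEMA5A rose by 1.00 ± 0.13, SEMA6D by 0.93 ± 0.16 and NTN4 by 0.69 ± 0.13 (limma, adjusted p = 1.54e-06, 0.000123 and 0.000238). SEMA6C and SEMA4F, named after their values were seen, rose by 0.49 and 0.22 (log2). The SEMA6C call was lost without any 1 of Helicon4_30mpk replicates 3 and 5 or Helicon4neg replicate 7 (adjusted p 0.0558 to 0.0763, limma), and the SEMA4F call without any 1 of Helicon4_30mpk replicates 1, 2, 4, 5 and 6 or Helicon4neg replicates 1 and 4 to 8 (0.0501 to 0.0937, limma). For the 35 genes past no threshold the 95% limits still allow differences, such as -0.35 to 0.37 for PLXNA4, -0.25 to 0.27 for PLXNB1, -0.30 to 0.32 for DPYSL2 and -0.74 to 0.01 for SEMA3B. The calls of SLIT2 without Helicon4_30mpk replicate 1 (adjusted p = 0.0610, limma) and of SRGAP1 without any 1 of 7 libraries (Helicon4_30mpk replicates 1, 2, 3, 5 and 6, Helicon4neg replicates 2 and 7; 0.0515 to 0.0895) did not last. After blocking on the title code 3 of the 20 stayed called, SEMA5B, PLXNA2 and SEMA5A, beside 1.38% of all genes. The blocked values rest on SH7081, the only code that holds both compounds. It has 1 Helicon4_30mpk library and 3 Helicon4neg libraries.

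**Figure D5:**
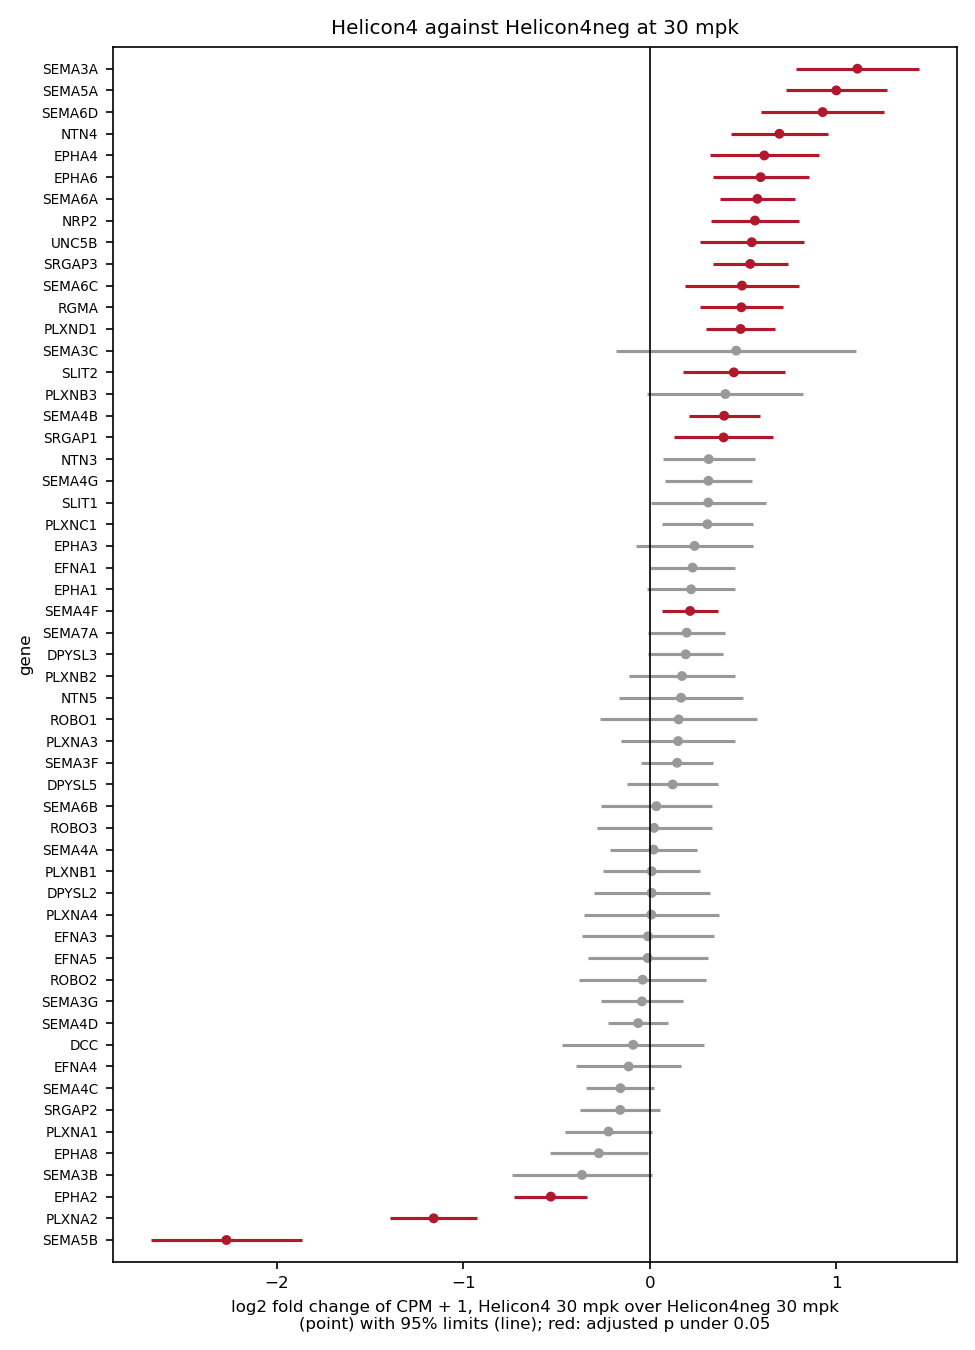
Log2 fold change of CPM + 1, Helicon4 over Helicon4neg at 30 mpk, for each of the 55 genes (points) with 95% limits (lines); red marks adjusted p under 0.05. The lines of SEMA5B, PLXNA2 and EPHA2 lie wholly below 0 and those of SEMA3A, SEMA5A and SEMA6D wholly above.

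Helicon4neg itself moved 2 of the 55 genes against vehicle, PLXNA4 and SEMA3B, both up, beside 2.21% of all genes that rose and 2.62% that fell, 4.84% in all. SEMA3B, a secreted semaphorin named after its values were seen, had 19.9 ± 3.9 CPM with Helicon4neg and 13.4 ± 3.9 CPM with vehicle, and its call was lost without any 1 of Helicon4neg replicates 1, 3, 4 and 8 or vehicle replicates 5, 7, 9 and 10 (adjusted p 0.0579 to 0.0956, limma). Within code SH7080, 5 Helicon4neg libraries averaged 21.7 CPM of SEMA3B and 2 vehicle libraries 9.58 CPM. For PLXNA4 those averages were 4.045 and 3.63 CPM. Without Helicon4neg replicate 2 the calls were 8 of the 55 genes and 19.4% of all genes. Against Helicon4neg, Helicon4 at 100 mpk had 18 of the 55 genes higher and 11 lower, beside 17% and 17.7% of all genes, 34.8% in all, but those doses differ.

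Between 100 and 30 mpk of Helicon4, 1 of the 55 genes rose (UNC5B) and 4 fell (SEMA5B, SEMA4D, SLIT1 and DPYSL3), beside 1.74% and 1.86% of all genes, 3.6% in all. UNC5B was higher by 0.56, SLIT1 lower by 0.66 (-0.66), DPYSL3 by 0.48 (-0.48) and SEMA4D by 0.35 (-0.35) on the log2 scale (limma, adjusted p = 0.0345, 0.0239, 0.0110 and 0.0193). None of the 5 stayed called under every left-out library: DPYSL3 was lost without Helicon4_100mpk replicate 4 (adjusted p = 0.0508), SEMA4D without any 1 of replicates 2 and 4 of that group and Helicon4_30mpk replicate 5 (0.0538 to 0.0651), SLIT1 without any 1 of replicates 2 and 4 at 100 mpk and 1 and 4 at 30 mpk (0.0590 to 0.120), and UNC5B without any 1 of replicates 2 to 5 at 100 mpk and 1, 2, 5 and 6 at 30 mpk (0.0557 to 0.0882, limma). The count ran from 0 of the 55 genes without Helicon4_100mpk replicate 4 to 10 without replicate 1 of that group, beside 2.49% and 5.26% of all genes.

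Of the marker lists of other cell types, the endothelial and the fibroblast lists differed from vehicle at both doses of Helicon4. The leukocyte list passed the test at neither dose. The tumours grew in mice and the handling of host reads is not given, so which cells these reads came from cannot be told. Of 10 endothelial markers 3 were in the table (CLDN5, EGFL7 and ESAM), and their summed CPM ran from 25.4 to 40.5 at 100 mpk and 32.97 to 55.3 at 30 mpk, against 42.1 to 149 with Helicon4neg and 41.2 to 96.0 with vehicle. Of 11 fibroblast and mural markers 5 were in the table (COL1A1, COL3A1, PDGFRA, PDGFRB and RGS5), with summed CPM of 48.3 to 55.7, 42.9 to 54.8, 24.97 to 48.0 and 31.6 to 44.8 in the same groups. Over 36 exact permutation tests the summed log2 level of the fibroblast list was higher and that of the endothelial list lower at 100 mpk than with vehicle (differences of 2.66 and -2.68, adjusted p = 0.004 each), and likewise at 30 mpk (1.48 and -1.43, adjusted p = 0.004 and 0.0132). Of the endothelial genes, CLDN5 had the largest fall, with 2.995 CPM at 100 mpk and 14.2 CPM with vehicle. EGFL7 and ESAM averaged 28.9 and 1.62 CPM at 100 mpk, against 45.85 and 2.01 CPM with vehicle. The fibroblast and mural genes were split. COL1A1, PDGFRA and RGS5 averaged 21.4, 2.02 and 7.06 CPM at 100 mpk, against 12.3, 0.366 and 2.72 CPM with vehicle. COL3A1 and PDGFRB averaged 11.3 and 9.71 CPM, against 11.9 and 12.1 CPM with vehicle. With 4 of 7 neuroendocrine, 4 of 8 leukocyte and 1 of 10 neuronal markers measured, the differences at 100 mpk were -1.17, 0.01 and 0.33 (exact permutation tests, adjusted p = 0.0132, 0.999 and 0.0700). At 30 mpk against vehicle they were -0.56, -0.26 and 0.43 (adjusted p = 0.0749, 0.558 and 0.0122), and against Helicon4neg -0.77, -0.53 and 0.38 (adjusted p = 0.0140, 0.473 and 0.0408, exact permutation tests); the neuronal list is SNAP25 alone. PECAM1, CDH5, VWF, COL1A2 and DCN were not analysed here. Several of the genes above, PLXND1, UNC5B, NRP2 and SLIT2 among them, are also known from vessels or stroma, and the part of such cells in their changes was not tested. The slope of log2 values on gene length averaged 0.0391 at 100 mpk and -0.0398 with vehicle. With this slope as a covariate 22 of the 55 genes rose and 12 fell at 100 mpk, beside 17.9% and 20.3% of all genes. Over all tested genes, fold change against vehicle rose with gene length (Spearman 0.238 at 100 mpk and 0.347 at 30 mpk). Within the 55 genes the values were 0.156 and 0.224. Their median length was 7026 bases, against 4933 bases for all tested genes, and the shares called were not matched for length.

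Of 64 other guidance pathway genes 53 were measured, 8 of which rose (15.1%) and 5 fell (9.43%) at 100 mpk against vehicle, beside 14.3% and 15.9% of all genes. NTNG2, a membrane-anchored netrin, averaged 1.39 ± 0.51 CPM at 100 mpk and 8.15 ± 2.53 CPM with vehicle, and the cell adhesion molecule NRCAM 1.13 ± 0.39 and 6.52 ± 2.62 CPM. RGMB, a repulsive guidance molecule and bone morphogenetic protein co-receptor, fell by 0.86 on the log2 scale. FLRT3, a ligand of UNC5 receptors, rose to 29.7 ± 5.8 CPM at 100 mpk, against 12.4 ± 2.0 CPM with vehicle. GPC1, a glypican that binds Slit proteins, fell by 0.53 and VAV2 by 0.44. These 6 had the smallest adjusted p, 0.000433 or less (limma). The other 7 rises were PAK1, PAK2, ROCK2, CDC42, MICAL1, PTK7 and TRIM9, by 0.27 to 0.56 on the log2 scale (adjusted p 0.00570 to 0.0470, limma). At 30 mpk 4 of the 53 rose (7.55%) and 3 fell (5.66%) against vehicle, beside 5.86% and 5.22% of all genes.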

How the data were processed

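The submitters' processing notes list Trimmomatic 0.39, STAR 2.7.7a, Subread 2.4.2 with featureCounts, edgeR 4.0.2 and GRCh38; settings, annotation and the handling of host reads are not given in the sources used here. What the authors deposited is a scaled signal, CPM computed from gene counts and an effective library size. The worth of 1 read was found from values under 20 CPM, as the smallest value divided by a whole number, which was 1 for 20 of the 29 libraries and 2 to 4 for the rest; divided by it, 100% of values of each library were whole within 0.05 reads, giving 26.8 to 61.6 M reads a library. These recovered counts, rebuilt from the deposited table, served for counting intervals and alternatives.

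Group means of log2(CPM + 1) were compared by limma 3.58.1 (R 4.3.3; mean trend, robust), all 4 groups together and two-sided, because the values are not raw counts. A gene needed 1 CPM or more in 5 libraries (13373 passed, the 55 members included), and Benjamini-Hochberg adjustment ran over all of them with 0.05 as threshold. The steps were tested on simulated data. Alternatives used edgeR 4.0.16 or DESeq2 1.42.0 on the recovered reads, other filters, scaling and a pseudocount of 0.1, blocks for replicate number or title code, a length covariate and left-out libraries. Genes were named by a rule: SEMA5B, up to 30 members of smallest adjusted p averaging 1 CPM or more, and up to 2 uncalled members a family. The members and lists were chosen with earlier results of these data known. Exons of DPYSL5, EPHA4, NRP2, SEMA6A and SEMA4G also overlap genes on the opposite strand, and the strand setting of the counting is not given. The labels give all libraries 1 protocol text, which names NEBNext and TruSeq stranded kits. Errors are SD for CPM and SE for fold changes.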

Additional observations from a re-analysis of the deposited data

Results flagged for a closer look

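Among the named genes, each group was searched for 1 library far from the rest by Dixon's test. It singled out 12 of 120 groups, where chance gives about 1 in 20. SEMA5B had 0.852 CPM in Helicon4_100mpk replicate 5, where the others had 0.182 to 0.337 CPM, and 2.7 CPM in Helicon4_30mpk replicate 4, where the others had 1.05 to 1.62 CPM. SEMA5A had 58.5 CPM in Helicon4_100mpk replicate 1, below 85.3 to 95.9 CPM in the others. SLIT2 had 31 CPM and SRGAP1 6.31 CPM in Helicon4neg replicate 2, below 52.7 and 11.1 CPM in the next lowest libraries. In Helicon4_100mpk replicate 2, SRGAP3 was high at 12.6 CPM and EPHA2 low at 25.7 CPM. PLXNA1 was high in Helicon4_30mpk replicate 4 at 197 CPM and low in vehicle replicate 6 at 133 CPM. SEMA4C was high in Helicon4_100mpk replicate 1 at 71.4 CPM, PLXNA4 in vehicle replicate 10 at 5.19 CPM and DPYSL5 in Helicon4_30mpk replicate 4 at 48.1 CPM.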

How the results depend on the processing

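Counts of called genes stayed within 1.5 times of the reported ones for all 6 comparisons under edgeR, TMM factors, no filter, a pseudocount of 0.1, the 5 CPM filter and no trend or robust fitting, except that this last gave 3 for Helicon4neg against vehicle, as did DESeq2. Blocking on the title code gave 1 call at 100 mpk, 0 at 30 mpk and 0 for Helicon4neg against vehicle. It gave 3 for the matched compounds, 0 between the doses of Helicon4, and 2 for its 100 mpk dose against Helicon4neg. In the same order, 1.05%, 0.553%, 0.015%, 1.38%, 0.0748% and 1.41% of all genes were called. Of named genes EPHA6 turned to -0.375 at 100 mpk and -0.0479 at 30 mpk against vehicle under this block. SEMA4C turned to 0.0595 and EFNA4 to 0.116 at 100 mpk against vehicle. These blocked values rest on single Helicon4_30mpk libraries and 2 vehicle libraries, and the cause was not tested. For Helicon4neg against vehicle the count was 5 with the length slope, 1 with only the 2 groups, 5 without vehicle 6 and Helicon4neg 2, and 1 to 8 over left-out libraries. Of all genes 17.8%, 2.8%, 15.2% and 2.94% to 19.4% were then called. For 100 against 30 mpk the count was 9 with DESeq2, 20 with the length slope, 14 without those 2 libraries and 0 to 10 over left-out libraries. The shares of all genes called were 5.61%, 15%, 7.87% and 1.56% to 5.26%. Leaving out 1 library gave 25 to 33 calls for 100 mpk and 20 to 24 for 30 mpk against vehicle. It gave 17 to 21 for Helicon4 against Helicon4neg at 30 mpk and 23 to 31 for 100 mpk against Helicon4neg. All genes called ran from 22.2% to 32.8%, 7.37% to 12.1%, 11.2% to 17.2% and 27.8% to 39% in that order.

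With the replicate number as a block the counts were 27, 22, 1, 18, 3 and 23 in the order given for the title code. The block called 33.1%, 11.4%, 3.48%, 12%, 2.74% and 33.4% of all genes. Residuals of same-numbered libraries correlated at -0.701 to 0.519 over 35 pairs, 15 of them above 0.1, and 0 of 27 libraries correlated best with their own number, so the numbers do not pair the samples. Depth limits genes such as PLXNA2, with 17 reads at 100 mpk.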
